A study of Oryza sativa with 6 samples.

Results

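Pathogenesis-related (PR) genes encode the proteins that plants accumulate after attack or stress, and 7 such rice loci of the PR1, PR5 and PR10 families were followed in roots exposed to ferulic acid (FA). They were found by their locus names among the 29689 loci of the array and are PR1a (Os07g0129200), PR1b (Os01g0382000), PR5 (Os12g0628600), PBZ1 (Os12g0555500), Os12g0555200, RSOsPR10 (Os12g0555000) and JIOsPR10 (Os03g0300400). All 7 are on the array, 5 of them with 2 probes and 2 of them (PR1b and PR5) with 1 probe.

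FA is a phenolic acid that is released from decomposing rice residues and slows the growth of rice roots. Roots of seedlings of cv. TN-67, 6 days old, were given 50 ppm FA, and control roots were given water, with 6 two-colour arrays in all. On 3 arrays the RNA was pooled from exposures of 1 and 3 h (short exposure), and on the other 3 arrays it came from 24 h (long exposure). The dyes were never swapped (FA in Cy5, control in Cy3), so a difference between the dyes at a probe cannot be told apart from an effect of FA. The arrays of each exposure are described as biological replicates, the study's methods state that root tips were sampled, and each sample holds the RNA of many roots and cell types. A higher ratio may therefore be more RNA per cell or more cells that make it, and these cannot be told apart.

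PR1 proteins are small secreted proteins of the CAP superfamily, and their transcripts are widely used as markers of salicylate-linked defence. PR5 proteins are thaumatin-like proteins, several of which are antifungal. PR10 proteins are small proteins of the cytosol with the Bet v 1 fold. In rice, PBZ1 was found as a gene induced by probenazole, a compound that protects leaves from blast, RSOsPR10 is named for its expression in roots, where salt, drought and jasmonate induce it, and JIOsPR10 is named for its induction by jasmonate.

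The root samples held root transcripts. Of 5 root marker loci, 4 lay well above background in both channels of all 6 arrays, and Os02g0662000 had a signal of 84128 to 226666 in FA roots and 51198 to 125990 in control roots. The fifth, Os11g0124300, reached only 20.2 in FA roots and 30.5 in control roots. Of 6 shoot marker loci, Os03g0592500 had 2305 to 3444 in FA roots and 1882 to 2711 in control roots, Os09g0346500 reached 436 in FA roots and 535 in control roots, and the other 4 stayed at or below 94.5 in FA roots and 115 in control roots. Log2 ratios over loci correlated between arrays at r = 0.91 to 0.92 among the short-exposure arrays and at 0.76 to 0.82 among the long-exposure arrays.

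After short exposure, 3 PR10 genes of chromosome 12 rose in FA roots: PBZ1 by a mean log2 ratio of 2.40, RSOsPR10 by 3.41 and Os12g0555200 by 3.44. With normexp background correction and loess in place of the processed ratios, Os12g0555200, whose control was dim, gave 1.99 and was still called. PR1a was higher by less than 2-fold, and the probes of JIOsPR10 differed in direction. PR1b and PR5 were too dim for the test. A locus was called where the adjusted p of limma (Benjamini-Hochberg over all tested probes) was under 0.1 and the mean changed at least 2-fold, and of the 5 members tested 3 were called higher and 0 lower, where 7.05% of the 19103 loci tested were called higher and 2.57% lower. At their brightest probes all 5 had a mean above 0 with an adjusted p under 0.1 when no fold limit was set, as did 28.3% of all loci. The median locus had a log2 ratio of -0.09. The members were chosen with earlier results of these data known, so these counts are no independent evidence.

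**Figure D1:**
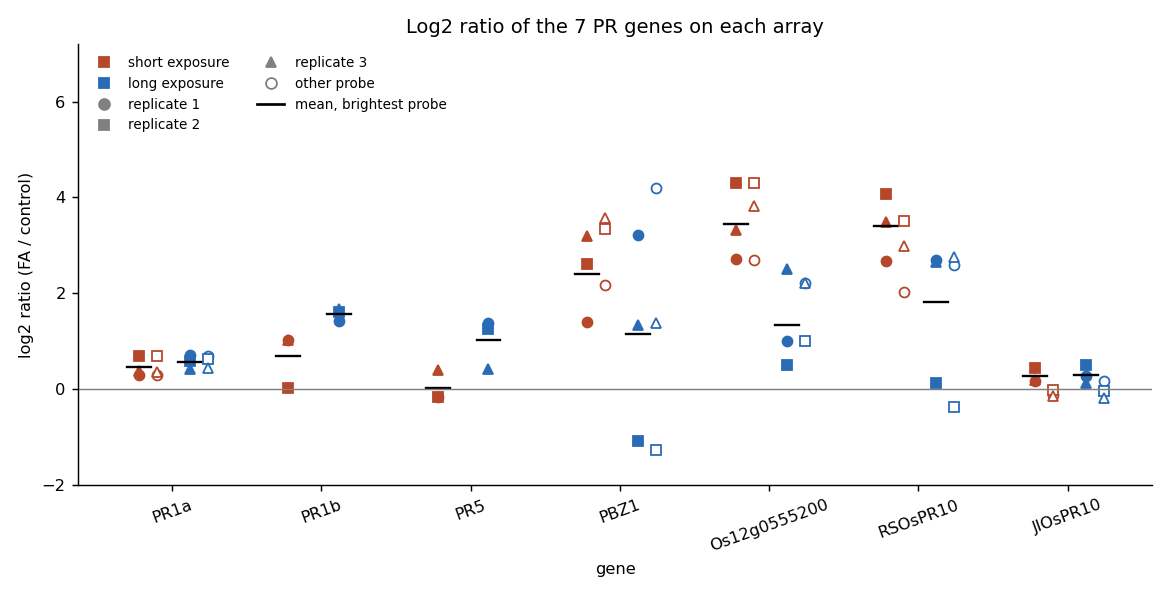
Log2 ratio of FA over control (vertical axis) for each of the 7 PR genes (horizontal axis), with short-exposure arrays in red and long-exposure arrays in blue to their right. Marker shape gives the replicate, filled points are the brightest probe, open points the other probe where there is one, and bars the mean of the brightest probe. The brightest probes of the 3 PR10 genes of chromosome 12 lie between 1.41 and 4.29 on the short-exposure arrays, and long-exposure replicate 2 gives the lowest value for each of them.

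RSOsPR10 had a processed signal (background-corrected and dye-normalized fluorescence) of 3286, 3084 and 2339 in FA roots of short-exposure replicates 1, 2 and 3, against 512, 183 and 210 in the control roots. Every FA value lay above every control value. The log2 ratios were 2.68, 4.07 and 3.48, with a mean of 3.41 ± 0.70 (SD, n = 3), which is 10.6-fold (limma adjusted p = 0.000194). Its other probe gave 2.84 ± 0.75 (adjusted p = 0.000474), and only 0.665% of the tested loci had a higher mean than the brightest probe.

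Os12g0555200, a PR10 locus for which no other name is used here, gave 256, 235 and 279 in FA roots and 39.2, 12.1 and 28.1 in control roots after short exposure. The FA roots were again above the control on every array. The control was well above background on only 1 of the 3 arrays, so the ratios of 2.71, 4.29 and 3.31 rest on a weak denominator on the other 2 arrays. Their mean was 3.44 ± 0.80 (limma adjusted p = 0.000289). At the other probe no control array was well above background, and FA roots were at least 3.25-fold higher. For this bound each control array counts with its own normalized signal or, if that is higher, with the dimmest signal well above background, and the fit gave an adjusted p of 0.000277 for that probe.

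PBZ1 gave signals of 485, 494 and 1633 in FA roots and 182, 80.8 and 179 in control roots after short exposure. Replicate 3 stood out by its FA signal, and replicate 1 had the smallest ratio. The ratios of 1.41, 2.61 and 3.19 averaged 2.40 ± 0.91, or 5.29-fold (limma adjusted p = 0.00152). The other PBZ1 probe gave 3.03 ± 0.74 (adjusted p = 0.000364), with its control well above background on 2 of 3 arrays. For all 3 genes replicate 1 had the lowest ratio of the short-exposure arrays.

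JIOsPR10, on chromosome 3, showed no such change. Its FA signals after short exposure were 11132, 8251 and 9130, against 9873, 6069 and 7974 in control roots. The mean log2 ratio was 0.27 ± 0.15 (limma adjusted p = 0.038), and 25.1% of the tested loci were higher. The other probe lay below 0 on all 3 arrays, at -0.09 ± 0.08 (adjusted p = 0.328), so the probes of this gene differed in direction and no direction is given for it.

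After long exposure (24 h), RSOsPR10 and Os12g0555200 were still called higher in FA roots, with smaller means and a wider spread between the arrays. PBZ1 was not called, since replicate 2 ran opposite to the other arrays. Of 5 members tested 2 were called higher and 0 lower, where 1.89% of the 18666 loci tested were called higher and 0.611% lower. Without the fold limit, 4 of the 5 were above 0 at an adjusted p under 0.1, as were 27.4% of all loci.

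RSOsPR10 had signals of 1135, 990 and 1175 in FA roots of long-exposure replicates 1, 2 and 3 and 175, 910 and 185 in control roots. The FA values were close together, and the control of replicate 2 reached almost the level of the FA roots. The ratios were 2.70, 0.12 and 2.66, with a mean of 1.83 ± 1.48 (limma adjusted p = 0.0258). Leaving out replicate 2 gave 2.68. The mean was 1.39 without replicate 1 (limma adjusted p = 0.0974) and 1.41 without replicate 3 (limma adjusted p = 0.0983), both close to the limit. RSOsPR10 was not called with no signal filter (limma adjusted p = 0.229) or with the methods' t-test (adjusted p = 0.261). The other probe gave 1.66 ± 1.76 (adjusted p = 0.0586) and was below 0 in replicate 2, at -0.37.

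PBZ1 had FA signals of 771, 826 and 398 and control signals of 83.3, 1762 and 157 after long exposure. The ratios were 3.21, -1.09 and 1.34, so FA roots were higher on 2 arrays and lower on 1. The mean of 1.15 ± 2.16 was smaller than the spread (limma adjusted p = 0.226). The other probe gave 4.20, -1.27 and 1.38, the same order of the arrays. Its control in replicate 1, at 28.1, was not well above background, so the ratio of 4.20 has no measured denominator. Without replicate 2 the mean of PBZ1 was 2.28 and it was called (adjusted p = 0.0202), and without replicate 1 the mean was 0.12 (adjusted p = 0.873).

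Os12g0555200 gave 119, 90.3 and 88.9 in FA roots and 59.0, 63.2 and 15.6 in control roots after long exposure, with the control well above background on 2 of 3 arrays. The FA roots were above the control on all 3 arrays. The ratios of 1.01, 0.51 and 2.51 averaged 1.35 ± 1.04 (limma adjusted p = 0.0228). Replicate 3, the array with the dim control, decided this call, and without it the mean was 0.76. With normexp and loess the mean was 0.63, under the fold limit. Os12g0555200 was also not called with no signal filter (limma adjusted p = 0.215) or with the methods' t-test (adjusted p = 0.249). Where every array had to reach a signal of 100 it was not tested. At the other probe, which stayed under the signal minimum, FA roots were at least 1.35-fold higher.

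JIOsPR10 gave 6888, 5948 and 8625 in FA roots and 5706, 4199 and 7950 in control roots after long exposure. The FA roots were slightly above the control of each array, with a mean log2 ratio of 0.30 ± 0.19 (limma adjusted p = 0.034). The other probe gave -0.02 ± 0.17 (adjusted p = 0.862), and the exposures differed by -0.03 at the brightest probe (adjusted p = 0.891).

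For PBZ1 and RSOsPR10 the long-exposure replicate 2 array stood apart in its control channel. After both channels were normalized across the arrays, its control level for PBZ1 lay 3.11 log2 units above the higher of the other long-exposure controls, the largest such gap among the 17955 loci compared. For RSOsPR10 the gap was 1.91, the 19th in that order. In the FA channel the same array lay slightly below the range or inside it, with gaps of -0.03 for PBZ1 and -0.26 for RSOsPR10. Of the long-exposure controls, replicate 1 had 25 loci at least 2 log2 units above both others, replicate 3 had 3 and replicate 2 had 12 (0.0668%). The median locus of the replicate 2 control was shifted by 0.02. The control of this array was not raised for PR1a (-0.20), JIOsPR10 (-0.81) or the 4 root marker loci measured on all arrays, at -0.68 to -0.05. It was above both other controls for Os12g0555200, by 0.18, and for the shoot marker loci Os12g0291100, by 1.60 at a signal of 115, and Os03g0592500, by 0.10. Whether these control roots differed from the others in their handling was not tested.

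**Figure D2:**
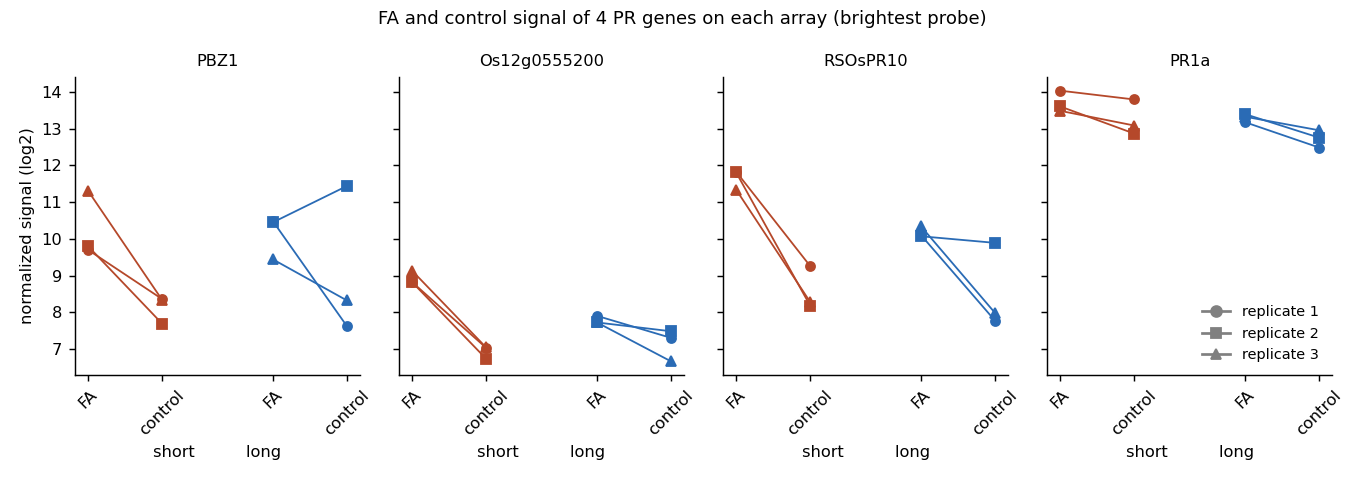
Normalized signal in log2 units (vertical axis) of PBZ1, Os12g0555200, RSOsPR10 and PR1a, with FA left of control for the short exposure (red) and the long exposure (blue); each line joins the 2 channels of 1 array and the marker gives the replicate. In long-exposure replicate 2 (squares) PBZ1 reached 10.45 in FA roots and 11.44 in control roots, and the line of RSOsPR10 is nearly flat, at 10.07 in FA roots and 9.89 in control roots.

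The levels of the single channels were also set side by side between the exposures, with no test. The normalized FA level of RSOsPR10 averaged 11.66 ± 0.28 after short and 10.17 ± 0.14 after long exposure, and the ranges did not overlap, while its control averaged 8.57 ± 0.60 after short and 8.55 ± 1.17 after long exposure (SD, n = 3 each). The FA level of Os12g0555200 averaged 8.92 ± 0.18 after short and 7.78 ± 0.11 after long exposure. Its dim control averaged 6.93 ± 0.18 after short and 7.15 ± 0.44 after long exposure. PBZ1 gave FA levels of 10.27 ± 0.90 after short and 10.13 ± 0.59 after long exposure, which overlapped, and its control averaged 8.13 ± 0.38 after short and 9.13 ± 2.03 after long exposure. These levels compare different arrays, and the long-exposure arrays shared a slide of their own, so time and slide cannot be told apart.

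The ratios of the exposures were also tested against each other on all 6 arrays. Os12g0555200 had a larger ratio after short than after long exposure, by 2.09 log2 units (limma adjusted p = 0.0255), and its ranges did not overlap. Its other probe differed by 1.79 (adjusted p = 0.0225). RSOsPR10 differed by 1.58 (adjusted p = 0.119) and PBZ1 by 1.25 (adjusted p = 0.366), neither past the limit, with overlapping ranges. Of the 5 members tested, 1 was thus called with a larger ratio after short exposure and 0 with a smaller one, where 5.73% of the 19616 loci tested were called larger and 2.89% smaller. Leaving out long-exposure replicate 1 brought the count to 3, with PBZ1 at 2.28 and RSOsPR10 at 2.02. Leaving out long-exposure replicate 2 gave 0.13 for PBZ1 and 0.73 for RSOsPR10, and the count stayed 1.

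PR1a was bright and changed little. It gave 10766, 7191 and 8363 in FA roots and 8763, 4453 and 6418 in control roots after short exposure. After long exposure it gave 6461, 6995 and 7421 in FA roots and 3943, 4654 and 5555 in control roots. FA roots were above the control of the same array on all 6 arrays, yet under 2-fold each time. The mean log2 ratio was 0.46 ± 0.21 after short exposure (limma adjusted p = 0.0098) and 0.57 ± 0.15 after long exposure (adjusted p = 0.00301), and the difference of -0.12 did not pass the test (adjusted p = 0.525). The probes of PR1a gave the same values within 0.04 log2 units on each array. Of all tested loci 17.2% had a higher mean after short exposure, and 7.42% after long exposure.

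PR1b and PR5 stayed below the signal minimum of 100 on every array and were not tested. PR1b gave 18.8, 70.5 and 18.5 in FA roots and 9.20, 69.4 and 9.08 in control roots after short exposure, and it was well above background on replicate 2 alone, where the log2 ratio was 0.02. After long exposure it gave 22.2, 25.0 and 26.3 in FA roots and 8.26, 8.23 and 8.20 in control roots. No control array was well above background here and FA roots were so on 1 array, so no fold is given. The long-exposure ratios of 1.43, 1.61 and 1.68 therefore have no measured denominator, although PR1b was the only member called after long exposure when no signal filter was set (limma adjusted p = 0.034).

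PR5 gave 76.3, 60.3 and 69.4 in FA roots and 85.0, 67.9 and 53.0 in control roots after short exposure, all of them well above background. Its log2 ratios of -0.16, -0.17 and 0.39 averaged 0.02 ± 0.32. After long exposure it gave 38.2, 68.6 and 28.9 in FA roots, above background on 2 arrays, and 14.7, 28.6 and 21.6 in control roots, above background on none. The ratios there, 1.38, 1.26 and 0.42, have no measured denominator either.

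**Figure D3:**
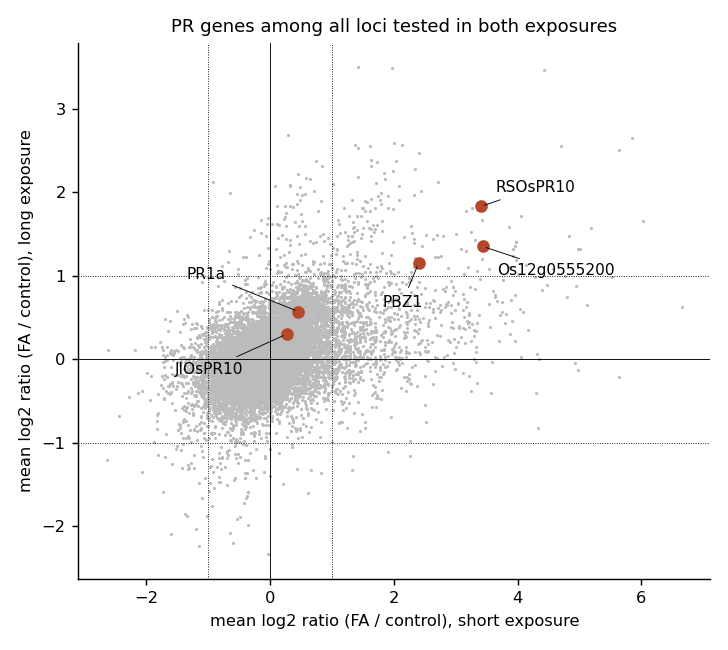
Mean log2 ratio of FA over control after short (horizontal axis) and long exposure (vertical axis) for the 17920 loci tested in both exposures (grey), with the 5 PR genes tested in both in red; dotted lines mark 2-fold. PBZ1, Os12g0555200 and RSOsPR10 are among the 180 loci above 2-fold in both means, while PR1a and JIOsPR10 lie inside the 2-fold lines.

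Set side by side, 3 of the 5 members tested in both exposures had a mean of at least 2-fold in both, and 180 of 17920 loci (1.00%) did. PBZ1 is one of these 3 by its mean only, since its long-exposure value did not pass the test. The members nearest to each other over the 6 arrays were JIOsPR10 and PR1a, with a root mean square difference of 0.26 log2 units, both under 2-fold. Among the genes with large ratios Os12g0555200 and RSOsPR10 were nearest, at 0.72.

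Loci with the next locus numbers on the same chromosome were read as well, 3 on each side of every member, 33 in all. Of the 22 tested after short exposure 3 were called higher and 1 lower, where 7.05% and 2.57% of all loci were. Of the 22 tested after long exposure 2 were called higher and 0 lower, where 1.89% and 0.611% of all loci were. Besides those described next, Os12g0556200 was called higher after short exposure, at 1.38, and Os12g0554800 lower, at -1.04. Os12g0555300, whose number lies between those of Os12g0555200 and PBZ1, was nearest to RSOsPR10 of all 17029 loci with values on 6 arrays, at a root mean square difference of 0.20. It gave 2.47, 4.14 and 3.18 after short exposure (limma adjusted p = 0.00041) and 2.91, -0.14 and 2.65 after long exposure (adjusted p = 0.0403), with the same low replicate 2. The next nearest locus to RSOsPR10 lay at 0.69. The nearest locus to Os12g0555200 was Os08g0105700, at 0.52, and that to PBZ1 was Os07g0638300, at 0.94. For PR1a and JIOsPR10, whose ratios were under 2-fold, the nearest loci lay at 0.06 and 0.05. Genes of close sequence may share signal on such probes, and this was not tested.

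Beside PR1a, the locus with the following number, Os07g0129300, moved in another way. It gave 0.63, -0.34 and 0.57 after short exposure (limma adjusted p = 0.245), against 2.40, 2.33 and 3.34 after long exposure (adjusted p = 0.00108). Its control was well above background on 2 of the 3 long-exposure arrays. The difference, short minus long, was -2.40 (adjusted p = 0.00213). Further off on the other side of PR1a, Os07g0127700 gave 3.04, 3.36 and 3.03 after short exposure (adjusted p = 1.55e-05). The loci numbered between it and PR1a were not called in either exposure. Its long-exposure ratios of 0.12, 0.76 and 0.63 were not tested by themselves. The difference, short minus long, was 2.64 (adjusted p = 0.000124). PR1a itself differed by -0.12.

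Transcription of PR genes follows receptor kinases, MAP kinase cascades and the hormones salicylate, jasmonate and ethylene. A list of 31 loci of these steps and of other PR classes was read beside the members. It also holds negative regulators, so a count of raised loci has no single direction. The list was chosen with earlier results of these data known, so its counts are no independent evidence. The study names 11 of the listed loci, and the other 20 are given by locus number alone. After short exposure 10 of the 29 tested were called higher and 0 lower, where 7.05% and 2.57% of all loci were, with a median log2 ratio of 0.45 over the list and -0.09 over all loci. After long exposure 5 of the 26 tested were called higher and 0 lower, where 1.89% and 0.611% of all loci were, with a median of 0.04 over the list and -0.03 over all loci. The calls were uneven over the list. After short exposure they were 6 of 13 salicylate loci and 2 of 3 loci of other PR classes. Perception and early signalling had 1 of 7, and jasmonate and ethylene had 1 of 6. After long exposure they were 3 of 3 loci of other PR classes and 2 of 12 salicylate loci. The tested salicylate loci not called after short exposure had means from -0.05 (Os01g0750100) to 0.74 (Os01g0767900). The called loci were not sorted into positive and negative regulators, so the counts give no direction for salicylate signalling.

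Of the named loci, 3 rose after short exposure. MAPK5a, a MAP kinase of stress signalling, gave 1.17, 1.16 and 1.29 (limma adjusted p = 0.000117). OsAOS2, an allene oxide synthase of jasmonate synthesis, gave 1.48, 1.34 and 1.28 (adjusted p = 9.14e-05). The WRKY gene Os02g0181300 averaged 3.14 ± 0.23 (SD, n = 3), with all 3 arrays close together (adjusted p = 1.77e-05). After long exposure MAPK5a averaged 0.05 ± 0.16, OsAOS2 -0.08 ± 0.11 and the WRKY gene 0.50 ± 0.18, none of them called. The ratios of these 3 were larger after short exposure, by 1.16 for MAPK5a, 1.44 for OsAOS2 and 2.64 for the WRKY gene, all past the limits. OsCOI1, part of the jasmonate receptor, gave a mean of -0.10 after short exposure (adjusted p = 0.331) and 0.03 after long exposure (adjusted p = 0.816), the last from 2 arrays because 1 spot was marked. EIN2, a membrane protein of ethylene signalling, and OsEIN3;1, a transcription factor of that pathway, were not called in either exposure.

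**Figure D4:**
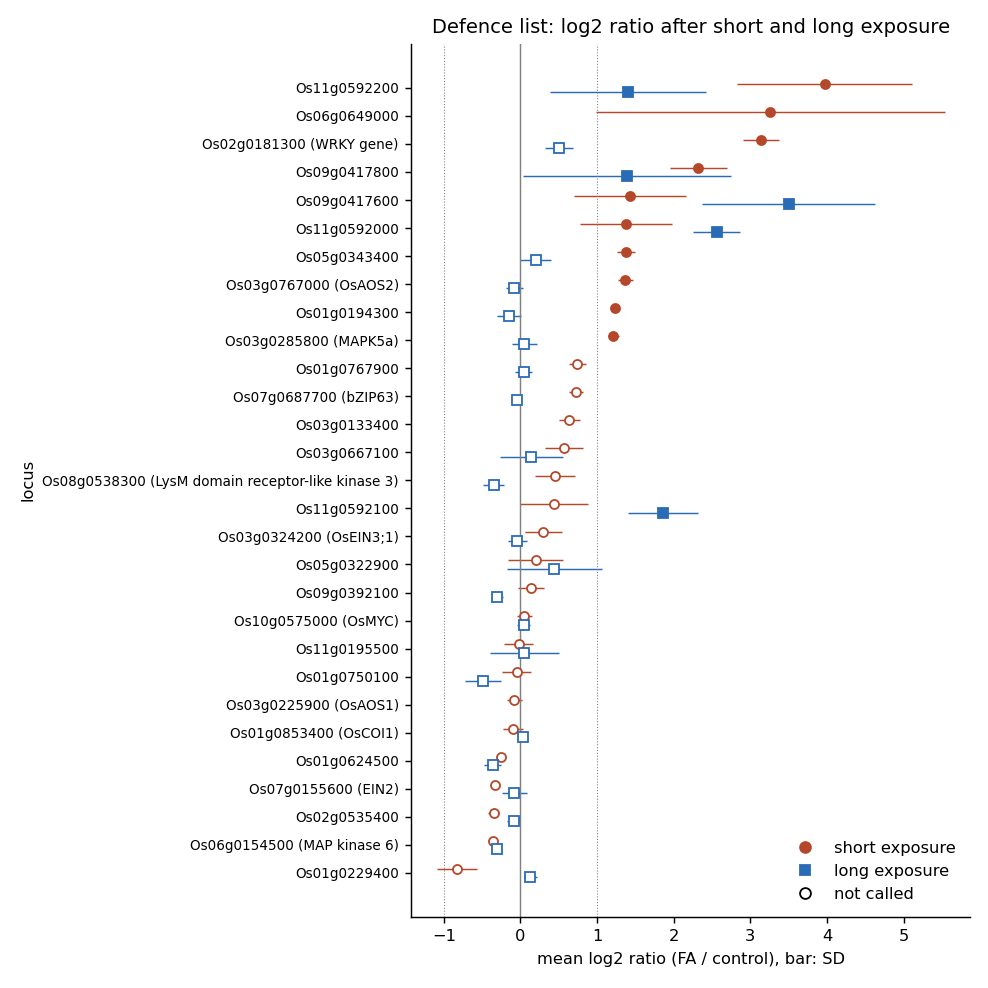
Mean log2 ratio of FA over control (horizontal axis) for the loci of the defence list tested in at least 1 exposure (vertical axis, ordered by the short-exposure mean), with short exposure as red circles and long exposure as blue squares; bars are SD over the arrays with a value, filled symbols are called loci. Called loci of the short exposure range from MAPK5a at 1.21 to Os11g0592200 at 3.97, and 5 loci are called after long exposure.

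Of the loci without a name, Os01g0194300 gave 1.24 ± 0.04 and Os05g0343400 gave 1.38 ± 0.12 after short exposure, both called higher. Os06g0649000 was called at 3.26 ± 2.28 with wide spread, its control being well above background on 1 of 3 arrays. Os01g0130200 was too dim to be tested in either exposure. The 5 loci of the list called after long exposure carry no name in the sources used. Os11g0592200 gave 2.67, 4.82 and 4.42 after short exposure (limma adjusted p = 0.000579), against 2.51, 0.52 and 1.16 after long exposure (adjusted p = 0.0189). It thus had, like Os12g0555200, a larger ratio after short exposure, by 2.57 (adjusted p = 0.021). Os11g0592100, Os11g0592000 and Os09g0417600 had smaller ratios at short than at long exposure, with differences of -1.42, -1.18 and -2.07, and these 3 were the only loci of the list called in that direction, beside 7 in the other. Os09g0417600 reached 4.27, 4.03 and 2.20 after long exposure (adjusted p = 0.00192), with its control well above background on 2 of the 3 arrays. Os09g0417800 was called in both exposures, at 2.32 after short and 1.39 after long exposure, with its control well above background on 1 of the short-exposure arrays and on none of the long-exposure arrays.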

How the data were processed

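Signals came from Agilent's Feature Extraction, version 10.7.1.1 per the file headers. The processed intensity that the authors deposited is corrected for background and normalized between dyes, and the median intensity of spot and background is deposited as scanned. Log10 ratios of Cy5 over Cy3, per the file headers, follow linear and LOWESS dye normalization. A value table deposited by the authors holds log2 ratios, equal to log2 of processed Cy5 over Cy3.

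Here log10 ratios were turned into log2 (FA/control). Control spots and those marked as non-uniform or population outliers were dropped, and spots of a probe were averaged. A probe entered the test of an exposure if 1 or more arrays reached a processed signal of 100 in the FA or control channel and if 2 or more arrays gave a ratio. A probe with a dim control could thus enter through its FA signal alone, as Os12g0555200 did. Tests were made with limma 3.58.1 in R 4.3.3, of the mean against 0 within each exposure and of short minus long over 6 arrays. Adjustment was by Benjamini-Hochberg over all tested probes, and calls needed an adjusted p under 0.1 with at least 2-fold change. A locus took the values of its brightest probe, by mean signal over all arrays. Single-channel levels came from normexp (offset 50), loess and Aquantile. For the bounds, the FA mean was set against the control mean in which each array counts with its own signal or, if higher, with the dimmest signal well above background. The nearest loci were found by the root mean square difference of the log2 ratios over 6 arrays.

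Members and lists were chosen with earlier results of these data known. All members are named, with values of each of their probes, and of the neighbouring and listed loci those called in an exposure. Relatives of the members were not searched. The alternatives were normexp with loess, the value table, other signal filters, array centring, 1 fit over all arrays, the median of a locus's probes, the methods' t-test, left-out replicates, slide as a random block and the replicate number as a block. The same functions were tested on simulated data. Precision is limited by the 3 arrays per exposure, and there is no counting depth on an array. An exact permutation test of 3 against 3 arrays cannot go below p = 0.1, nor an exact sign test of 3 arrays below 0.25 (both two-sided), so single values were not tested that way. Figures were drawn with matplotlib 3.10.9 in Python 3.11.15.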

Additional observations from a re-analysis of the deposited data

Results flagged for a closer look

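For Os12g0555200 the effect of FA differed between the exposures by a test of the difference itself. The log2 ratio was larger after short than after long exposure by 2.09 (limma adjusted p = 0.0255), with 2.71, 4.29 and 3.31 after short exposure and 1.01, 0.51 and 2.51 after long exposure. The control was well above background on 1 of the 3 short-exposure arrays and on 2 of the 3 long-exposure arrays, and each exposure had slides of its own. With normexp and loess the difference was 1.36. The gene entered the test through its FA signal alone, in both exposures.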

How the results depend on the processing

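After short exposure the count of 3 members called was 2 with the methods' t-test, which lost PBZ1, and 3 under every other alternative that was run. After long exposure the count of 2 was 1 with normexp and loess, 1 with no signal filter (PR1b alone), 1 where every array had to reach a signal of 100, 0 with the methods' t-test, and 1 to 3 with a replicate left out, the lowest without replicate 3 and the highest without replicate 2. For short minus long the count of 1 was 2 with normexp and loess, 2 with slide as a random block (RSOsPR10 was added in both, at 1.47 and 1.58), 0 with no signal filter, 0 with the two-sample t-test, and 1 to 3 with an array left out. Where every array had to reach 100 that count stayed 1, but the gene called was RSOsPR10 (adjusted p = 0.0802) because Os12g0555200 was no longer tested. The list's 10 loci called after short exposure became 7 with the methods' t-test and 9 where every array had to reach 100. Its 5 loci called after long exposure became 3 with no signal filter, 2 with the methods' t-test and 4 with normexp and loess. That count was also 4 where every array had to reach 100, and 4 to 5 with a replicate left out. For short minus long the list's 10 called loci became 7 with the two-sample t-test, and 7 to 11 over all alternatives. No called value changed sign, and the difference of JIOsPR10 between the exposures (-0.03, not called) lay between -0.12 and 0.08.

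With the replicate number as a block 1 member was called in short minus long, as without it, and no other call changed. The deviations of same-numbered arrays correlated at -0.13, -0.03 and 0.16, and those of other pairs at -0.28 to 0.34. These values show no pairing by number. With 3 arrays per exposure they cannot settle whether the replicates were paired. A search for relatives of the members by protein or description was not run, since the reference used here holds neither, and no promoter motif was sought.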
